A study of Mus musculus with 60 samples.

Results

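The genes described here are the matrix metalloproteases (Mmp), the secreted Adamts proteases and the tissue inhibitors of metalloproteases (Timp). All rows of the deposited count tables with a symbol of the form Mmp, Adamts or Timp followed by a number were taken, which gave 46 genes among 54838 in the tissue table and the same 46 among 46517 in the fibroblast table. They were 23 Mmp, 19 Adamts and 4 Timp genes. Libraries of 3' end RNA sequencing (QuantSeq) came from mice in which a CD74-NRG1 fusion, inserted at Rosa26 with a removable stop, was switched on in nearly all tissues by a Flp deleter allele, also at Rosa26. Of 60 samples, 42 were fresh frozen tissue of 9 mice labelled as this line (Rosa26 CD74-NRG1/Flp) and 18 were embryonic fibroblasts of 9 embryos. Tumour libraries were 7 sarcomas of 6 mice (2 of them from mouse M00245, whose counts were summed), 3 liver tumours of 3 mice and 2 libraries of the intestine tumour of mouse M00247. Ranges and medians of sarcomas are over the 6 mice after that sum, unless single libraries are named. Normal tissues were 8 livers, 7 lungs, 6 muscles, 6 spleens, 2 brains and 1 kidney. They carry the same line label as the tumours, and no tissue is labelled as a control without the fusion; the fusion was not restricted to the cell types in which tumours arose. Read through Nrg1, mouse M00246, which has no tumour library, goes against that label: its liver had 0.675 CPM (other livers 27.6 to 83.3), its muscle 1.3 (others 26.4 to 38.5), its spleen 2.34 (others 8.16 to 26.9) and its lung 5.36 CPM (others 8.93 to 111). The reason was not tested. Counts of genes called with these 4 libraries are also given without them, with the calls of named genes that were lost. Fibroblasts came from embryos labelled negative (Rosa26 Flp/Flp), heterozygous or homozygous for the fusion, 3 embryos each, at passages 1 and 3.

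Matrix metalloproteases are zinc-dependent endopeptidases that are made as inactive precursors and cut collagens, gelatin, elastin and many surface proteins; some are secreted and others sit in the cell membrane. Adamts proteases carry thrombospondin repeats and trim procollagens, cut large proteoglycans such as versican and aggrecan, or process von Willebrand factor. Timps bind the active site of these enzymes and also hold some of their precursors at the cell surface. RNA levels say nothing of how much of an enzyme is activated or inhibited.

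Of the 46 genes, 10 Mmp genes lie next to each other on chromosome 9: Mmp1a, Mmp1b, Mmp3, Mmp7, Mmp8, Mmp10, Mmp12, Mmp13, Mmp20 and Mmp27. Collagenase and stromelysin promoters are a textbook case of control through the AP-1 element. It was searched as TGANTCA, with any base at N, in the RefSeq promoters (build GRCm38.p6, 250 bases before to 50 after the gene start). The motif reads as the same pattern on both strands. Promoters were found for 32 of the 46 genes. Mmp2, Mmp9, Mmp16, Mmp17, Mmp19, Adamts4 and Adamts5 were among those without one, so the search says nothing of them. The letters were present in 8 of the 10 clustered genes, not in Mmp8 or Mmp27, and in 0 of the 22 other genes with a promoter, while 2565 of 32851 mouse promoters (7.81%) held them. The match was TGAATCA in Mmp20, TGACTCA in Mmp13 and TGAGTCA in the other clustered genes that had it. All shares are for the pattern with any base at N. A match is a description of these letters and not a measured binding site. The 30-base windows around the motif are shown because they hold Mmp3, Mmp12 and Mmp13, to which results below turn, beside their neighbours. Capitals mark the motif, and sequences run 5′ to 3′ on the strand of the gene.
Mmp13: ccccaaagtggTGACTCAtcactatcatgc
Mmp12: gacatcaacagTGAGTCAgatagaggattt
Mmp1b: gttacaaagccTGAGTCAtatagcctctgg
Mmp3: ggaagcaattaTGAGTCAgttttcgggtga
Mmp1a: gttgtcaaccaTGAGTCAcatagcctctgg
Mmp10: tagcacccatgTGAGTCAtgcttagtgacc
Mmp20: catttgagacaTGAATCAtcacttacaggg
Mmp7: aagtgtgcaaaTGAGTCAcctatttccaca
The windows lie at chr9:7272468-7272497 for Mmp13, chr9:7347319-7347348 for Mmp12, chr9:7388101-7388130 for Mmp1b on the minus strand, chr9:7445765-7445794 for Mmp3, chr9:7464057-7464086 for Mmp1a, chr9:7502268-7502297 for Mmp10, chr9:7628125-7628154 for Mmp20 and chr9:7692016-7692045 for Mmp7. The motif began 35 bases before the gene start in Mmp13, 44 in Mmp12 and 46 in Mmp3. In Mmp7 and Mmp10 that distance was 63 bases, in Mmp1a 73, in Mmp1b 93 and in Mmp20 95.

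Tissue libraries held 4837440 to 10089572 counts and the fibroblast libraries used 3107529 to 5000067. Levels are given as CPM, the count scaled to the library total, and since 3' end counts were used as deposited, levels of different genes are not compared with each other. Fold changes, in contrast, come from edgeR's fit with TMM scaling, which sets most genes to no change. Scaling to library totals instead, chosen after seeing the data, moved the median log2 fold change of all genes by 0.97 for sarcoma against muscle, 1.22 against liver, 0.53 against spleen, 0.16 against lung and 0.96 against liver tumour, so ratios of the CPM values printed here are larger than the fitted folds. In the normal tissues the same change of scaling moved it by −0.41 for muscle, 0.59 for lung, −0.77 for liver, 0.23 for spleen and 0.36 for brain, each against the other tissues, and by 0.18 for liver tumour against liver. Defining markers matched the labelled tissue in muscle, lung, liver, spleen, brain and kidney, but not in the intestine tumour, where 5 intestine markers summed to only 2.59 to 3.2 CPM. In bulk tissue, fewer cells of a type and less RNA per cell cannot be told apart.

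Mmp1a and Mmp1b, the mouse interstitial collagenases, were at 0 in every library of both tables, and the other 44 genes had at least 1 count in some tissue library. Where a tissue library has no count of a gene, 3 counts or 0.297 to 0.620 CPM remain possible. At a median of at least 5 CPM there were 23 of the 46 genes in sarcoma, 18 in normal lung, 16 in brain, 11 in liver tumour, 10 in spleen, 9 in muscle and 6 in normal liver. In fibroblasts 19 genes reached that level. The map of all 46 genes shows this spread, with sarcoma, lung and fibroblasts holding the most genes at high levels and liver the fewest.

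**Figure D1:**
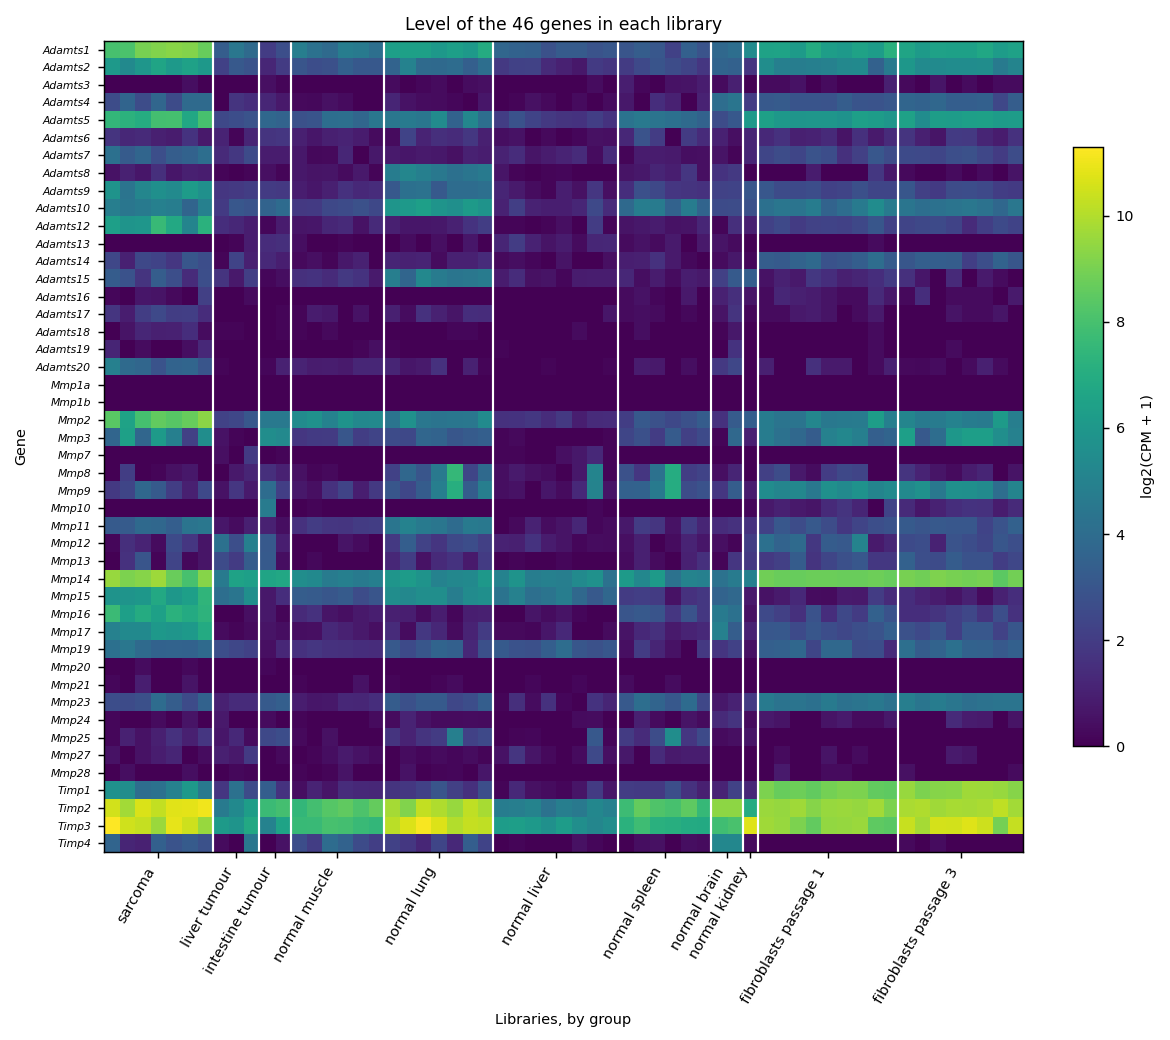
Level of each of the 46 genes (rows) in each library (columns, grouped by tissue, tumour or passage and separated by white lines), as log2(CPM + 1). Sarcoma reached a median of 5 CPM for 23 genes and normal liver for 6; Mmp1a and Mmp1b were at 0 throughout.

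Most of the genes that could be tested had more RNA in sarcoma than in muscle, the tissue compared first. Of 24 genes with enough counts to be tested, 21 were higher in sarcoma and 0 lower, and the same 21 were those at an unadjusted p under 0.05; over all 14697 genes tested, 33.6% were higher and 31.4% lower, 64.9% in all. The median log2 fold change was 2.57 for the genes tested and 0.06 for all genes. DESeq2 called 21 higher and 1 lower (Timp4), and scaling to library totals called 23 higher and 0 lower, while the share of higher among all calls went from 51.7% to 82.1%. Without M00246, edgeR with TMM scaling called 23 higher and 0 lower. The 22 other genes did not pass the filter on low counts, which keeps a gene that is high in either group. A gene low in muscle could thus enter the test through the sarcomas, as did Adamts4 (mean 9.67 against 0.187 CPM).

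Among the membrane-type proteases, Mmp14, which activates the precursor of Mmp2 at the cell surface, ran from 332 to 791 CPM in sarcomas (median 601) and from 23.2 to 45.3 CPM in muscles (median 28.3). No sarcoma came near a muscle, and the log2 fold change was 3.32 ± 0.24 (SE, 6 mice against 6, edgeR's quasi-likelihood test with Benjamini-Hochberg adjustment, adjusted p = 8.2e-08). Mmp16, a close relative of Mmp14, went from 0.389 to 2.09 CPM in muscle to 81.6 to 208 CPM in sarcoma (log2 fold change 6.00 ± 0.35, adjusted p = 1.9e-08). Mmp17, which is anchored to the membrane by a lipid, lay between 30.4 and 120 CPM in sarcomas and between 0.331 and 1.44 CPM in muscles (5.37 ± 0.43, adjusted p = 1.9e-07). Mmp15 completed this class with 54.4 to 166 CPM in sarcoma against 5.14 to 8.93 CPM (2.57 ± 0.25, adjusted p = 1.2e-06). For all of them the groups were far apart. Mmp24 and Mmp25 stayed under the filter in this comparison, with at most 0.276 and 2.46 CPM in sarcomas.

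Of the gelatinases, which digest denatured collagen, Mmp2 ran from 89.6 to 641 CPM in sarcomas (median 352) and from 31.0 to 55.2 CPM in muscles (log2 fold change 2.01 ± 0.30, adjusted p = 5.3e-05). Mmp9 overlapped, at 1.93 to 12.6 against 0.399 to 4.01 CPM (0.66 ± 0.57, adjusted p = 0.32). The stromelysin Mmp3, a protease with many matrix substrates, spanned 11.9 to 85.6 CPM in sarcomas and 2.42 to 7.25 CPM in muscles (2.57 ± 0.59, adjusted p = 0.0018), and Mmp11 8.28 to 21.3 against 2.09 to 3.11 CPM (1.33 ± 0.23, adjusted p = 0.00019). Neither pair of ranges overlapped with the libraries of M00245 summed, but 1 of these libraries alone had Mmp3 at 3.48 CPM, inside the muscle range. Mmp19 (log2 fold change 1.94 ± 0.27) and Mmp23 (1.89 ± 0.37) were also higher, with adjusted p of 2.9e-05 and 0.00054. Collagenases and the elastase stayed low: Mmp13 had 0 to 6.93 CPM in sarcomas, Mmp8 0 to 3.13 and Mmp12, the macrophage elastase, 0.159 to 3.49 CPM.

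Adamts proteases that cut versican and aggrecan were high. Adamts1 ran from 257 to 606 CPM in sarcomas (median 461) against 14.2 to 27.3 CPM in muscles (log2 fold change 3.41 ± 0.23, adjusted p = 5.1e-08). Adamts5, the main aggrecanase of mouse cartilage, ran from 128 to 254 CPM against 6.06 to 21.0 CPM (2.85 ± 0.34, adjusted p = 7.1e-06), and Adamts4, the other classical aggrecanase, from 5.12 to 14.0 CPM against 0 to 0.442 CPM (4.66 ± 0.55, adjusted p = 6.2e-06). Every sarcoma stood above every muscle for these genes. Adamts9 (4.14 ± 0.31) and Adamts20 (2.73 ± 0.42), which are related to each other and cut versican, were likewise higher, with adjusted p of 1.2e-07 and 7.3e-05.

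Adamts12, which together with Adamts7 cuts cartilage oligomeric matrix protein, had 56.9 to 197 CPM in sarcomas (median 75.5) and 0.478 to 1.56 CPM in muscles (log2 fold change 5.69 ± 0.43, adjusted p = 1.3e-07). Adamts7 lay between 5.53 and 17.0 CPM against 0 to 1.3 CPM (3.57 ± 0.53, adjusted p = 4.7e-05). Adamts2, which removes the amino propeptide of fibrillar procollagens, ran from 39.7 to 94.8 CPM against 5.28 to 9.97 CPM (2.24 ± 0.20, adjusted p = 4e-07). In each of them the lowest sarcoma exceeded the highest muscle. Adamts10, a microfibril protein, was higher by 1.57 ± 0.25 (adjusted p = 0.00011), and Adamts15 was not called (0.70 ± 0.39, adjusted p = 0.13).

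Of the 4 inhibitors, 3 were also higher in sarcoma than in muscle. Timp1, the inducible inhibitor, ran from 15.7 to 51.7 CPM in sarcomas against 0.331 to 1.68 CPM in muscles (log2 fold change 4.04 ± 0.48, adjusted p = 6.8e-06). Timp2, which also takes part in the activation of Mmp2 by Mmp14, ran from 864 to 2118 CPM against 178 to 391 CPM (1.34 ± 0.23, adjusted p = 0.00021), and Timp3, the inhibitor that binds to the matrix, from 742 to 2523 CPM against 180 to 258 CPM (1.76 ± 0.31, adjusted p = 0.0002). The ranges did not overlap for any of these inhibitors. Timp4, at 1.05 to 11.3 CPM in sarcoma and 3.09 to 15.0 CPM in muscle, was not called (−1.19 ± 0.57, adjusted p = 0.08).

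**Figure D2:**
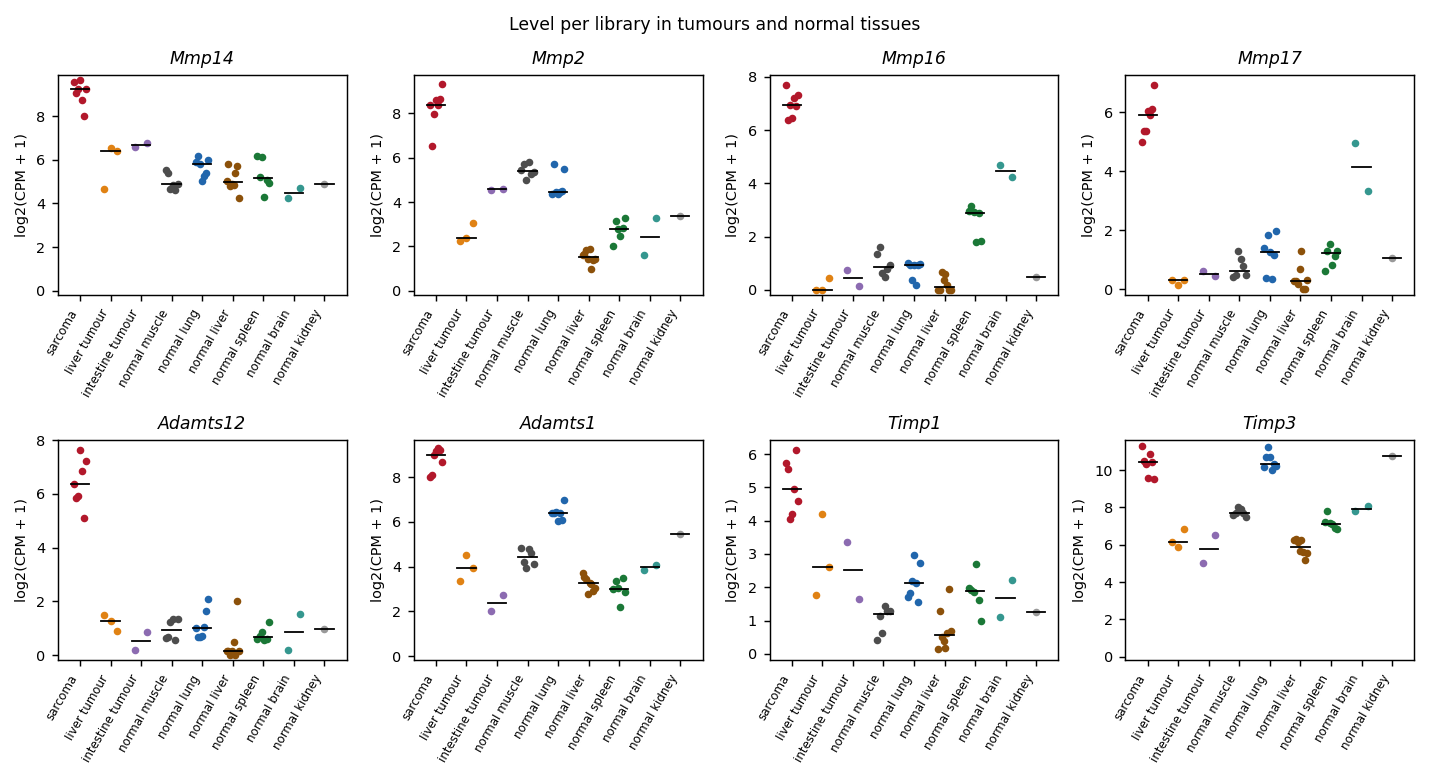
Level of 8 of the genes in each tumour and normal library, as log2(CPM + 1); points are libraries (both sarcoma libraries of M00245 shown) and lines are medians. Mmp14, Mmp16, Adamts12, Adamts1 and Timp1 of each of the 6 sarcoma mice lie above all normal libraries, whereas Timp3 of sarcoma and lung overlap.

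Against liver and spleen most of the genes tested were likewise higher in sarcoma, Timp1, Timp2 and Timp3 among them. Against lung Timp1 was the 1 inhibitor called by edgeR with TMM scaling. Against liver, 21 of 23 genes tested were higher and 0 lower (background 38.5% and 35.4%, 74.0% in all; 21 at an unadjusted p under 0.05), and DESeq2 called 22 and 0; the median was 4.29 against 0.09 for all genes. With scaling to library totals 22 were higher, and the share of higher among all calls went from 52.1% to 81.2%. Against spleen, 21 of 27 were higher and 4 lower (background 27.0% and 30.0%, 57.0% in all), with a median of 3.00 against −0.09; scaling to library totals gave 21 and 3 and moved the share of higher calls from 47.4% to 72.0%. Lung differed least: 16 of 32 were higher and 8 lower (background 18.1% and 23.8%), with a median of 0.955 against −0.01. Without M00246 the counts were 21 and 0 against liver, 22 and 4 against spleen and 17 and 8 against lung.

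Of the membrane-type class, Mmp16 had log2 fold changes of 7.28 ± 0.36 against lung, 8.15 ± 0.46 against liver and 4.10 ± 0.30 against spleen. Mmp14 gave 3.44 ± 0.25, 2.93 ± 0.24 and 3.31 ± 0.33 in the same order. For Adamts12 the values were 6.06 ± 0.46, 6.61 ± 0.64 and 6.54 ± 0.42, and for Timp1 3.07 ± 0.42, 4.29 ± 0.54 and 3.12 ± 0.46. All these calls passed edgeR's adjusted threshold of 0.05. Adamts20 had 567 counts in 6 sarcomas and 2 in 8 livers. Divided by library totals, the ratio was 411 (95% exact interval 113 to 3402, counting error only), and the fitted log2 fold change was 7.16 ± 0.64. Mmp3, at 0 to 0.225 CPM in livers, was called higher with adjusted p = 1.3e-07.

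There were 8 genes lower in sarcoma than in lung. Adamts8, a relative of Adamts1 known to restrain vessel growth, had 0.478 to 1.89 CPM in sarcoma and 16.8 to 35.9 CPM in lung (−4.80 ± 0.32, adjusted p = 1.5e-08). Adamts10 (−1.48 ± 0.17) and Adamts15 (−2.15 ± 0.36) also had ranges that did not overlap, with adjusted p of 4.6e-06 and 0.00017. Mmp8 (−5.92 ± 1.3), Mmp9 (−2.63 ± 0.78), Mmp25 (−2.67 ± 0.77), Mmp12 (−1.89 ± 0.59) and Mmp11 (−0.92 ± 0.21) made up the rest, with adjusted p of 0.0016, 0.013, 0.011, 0.017 and 0.0024. With the mouse as a block, 5 remained lower; Mmp9, Mmp12 and Mmp25 were lost (adjusted p = 0.58, 0.11 and 0.2), as were Mmp3 and Mmp15 among the higher genes (0.11 and 0.086). Leaving out M00238 or M00248 also ended the call of Mmp12 (adjusted p = 0.061 in both). Timp2 and Timp3 of sarcoma were not called against lung (0.52 ± 0.21, adjusted p = 0.057, and −0.19 ± 0.31, adjusted p = 0.66). Timp2 was called higher in sarcoma by DESeq2 and under RLE scaling and library totals. It was not called with the mouse as a block or in the joint fit. Spleen exceeded sarcoma in Mmp8, Mmp9, Mmp25 and Mmp23 (−0.83 ± 0.31, adjusted p = 0.035); DESeq2 called Mmp9 and Mmp23 and gave no adjusted p for Mmp8 and Mmp25. The call of Mmp25 was lost with the mouse as a block (adjusted p = 0.19), and that of Mmp23 under scaling to library totals (−0.33, adjusted p = 0.45), RLE scaling, the joint fit of all tissues, no filter and on leaving out any of M00235, M00236, M00237, M00245 or M00248 (adjusted p between 0.071 and 0.19).

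Another description counts genes whose lowest sarcoma CPM exceeded the highest CPM of all 30 normal libraries. These were 13 of the 44 genes with a tissue count (29.5%): Adamts1, Adamts2, Adamts5, Adamts7, Adamts9, Adamts12, Adamts20, Mmp2, Mmp14, Mmp15, Mmp16, Mmp17 and Timp1. The background was 712 of 36389 genes (1.96%), a subset of the 54838 in the tissue table. Many of those 36389 had too few counts to be tested (14697 were tested against muscle), so the shares are not like for like. Without the libraries of M00246 the same 13 genes remained. The widest gaps were those of Adamts12 (56.9 against 3.2 CPM in a lung) and Mmp14 (332 against 72.1 CPM in a lung). The narrowest were those of Mmp17 (30.4 against 30 CPM in a brain) and Adamts9 (19.3 against 18.2 CPM in a lung). CPM, scaled to library totals, sets sarcomas higher against muscle, lung, liver and spleen than TMM does. Narrow gaps therefore depend on the scaling, and the count was not made on the TMM scale.

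Sarcomas differed among themselves. In the 2 sarcoma libraries of M00245, 9 of 24 genes that reached 5 CPM in a sarcoma lay more than 2-fold apart: Mmp3 was 28.3 in one and 3.48 CPM in the other, Adamts12 114 and 33.4, Adamts4 4.96 and 13.9, and Timp1 30.2 and 69.0 CPM. Mmp14 (425 and 258 CPM) and Adamts1 (629 and 587 CPM) were closer. Marker sums of several cell types were read beside the sarcoma results. The sum of 6 fibroblast markers (collagens, Pdgfra, Dcn and Lum), all detected, was 7709 to 31658 CPM in sarcomas and at most 1573 CPM in any normal tissue. A sum of 4 Schwann and neural crest markers was 1768 to 5176 CPM in sarcomas, 3656 to 4158 in brains and 64.5 to 153 in muscles. Macrophage markers, 8 of 8 detected, summed to 388 to 1166 CPM in sarcomas, above the 93.4 to 196 CPM of muscles, and overlapped with livers (189 to 880), lungs (317 to 587) and spleens (991 to 1298). Squamous keratins, 3 of 3 detected, summed to 265 to 5471 CPM in sarcomas, against 851 to 4009 in muscles and at most 28.9 CPM in lungs, livers and spleens. The part of these cells in the results was not tested.

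Genes around the proteases were read from lists of matrix substrates and related proteases. All 7 collagens tested were higher in sarcoma than in muscle (median 4.36), led by Col5a1 (3.92 ± 0.24), Col4a2 (4.40 ± 0.28), Col5a2 (4.18 ± 0.27) and Col1a1 (5.39 ± 0.39), and all 7 were also higher than in lung, liver and spleen. Of 5 proteoglycans, 4 were higher, among them versican (Vcan, 5.17 ± 0.33), the substrate of Adamts1, Adamts5 and Adamts9. Of 10 ADAM metalloproteases, membrane proteins that shed ectodomains, 6 were higher and 1 lower, with Adam12 at 59.6 CPM in sarcoma against 0.0903 CPM and Adam23 at 303 against 2.30 CPM (group means). Of 10 regulators of the plasminogen system, 7 were higher and 0 lower, including Serpine2 (1.83 ± 0.17) and the activator Plat (2.78 ± 0.54). Cathepsins, the lysosomal proteases, gave 6 higher and 2 lower of 8 against muscle, but 1 and 3 against lung, 1 and 6 against liver, 2 and 6 against spleen and 1 and 7 against liver tumour. Factors upstream of Mmp transcription were mixed: of 11 AP-1, ETS and cytokine genes, 4 were higher (Ets1, Etv4, Etv5, Tgfb1) and 5 lower (Fosb, Fosl2, Junb, Jund, Ets2). Against lung 1 of 12 was higher and 7 were lower, and against liver 7 of 12 were higher and 2 lower. Against spleen 5 of 11 were higher and 5 lower. Over all genes tested, 33.6% were higher and 31.4% lower against muscle, and 18.1% and 23.8% against lung. These shares were 38.5% and 35.4% against liver, 27.0% and 30.0% against spleen and 30.2% and 25.6% against liver tumour. Counts of the lists are to be read beside them.

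Sarcomas also exceeded liver tumours in many of these genes. Compared directly, 17 of 30 genes tested were higher in sarcoma and 2 lower (background 30.2% and 25.6%, 55.8% in all), with a median of 2.08 against 0.20 for all genes. Scaling to library totals gave 24 and 1 and moved the share of higher calls from 54.1% to 80.2%. Mmp16 had 5805 counts in sarcomas and 3 in liver tumours. Divided by library totals, the ratio was 1146 (95% exact interval 392 to 5559), and the fitted log2 fold change was 9.07 ± 0.76. Adamts17 had 125 counts against 0. With the 3 liver tumours together set to 3 counts, this is at least 24.7-fold higher after division by library totals. The call of Adamts17 was lost with the mouse as a block (adjusted p = 0.14). The genes lower in sarcoma were Mmp12 (−4.67 ± 0.75, adjusted p = 0.00036) and Mmp13 (−2.53 ± 0.98, adjusted p = 0.045). The Mmp13 call was lost with the block (adjusted p = 0.14), under library totals and on leaving out any of M00236, M00238, M00245, M00248 or M00249 (adjusted p between 0.059 and 0.16).

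Mmp12 and Mmp13, neighbours on chromosome 9 with the motif shown above, were the leading genes when liver tumours were compared with normal livers. Mmp12 was 17.6, 5.55 and 29.4 CPM in the tumours of M00236, M00248 and M00249 and 0.135 to 2.15 CPM in 8 normal livers (median 0.672). No liver reached the lowest tumour, and the log2 fold change was 4.25 ± 0.57 (adjusted p = 0.00084). Mmp13, a collagenase, was 5.05, 2.87 and 9.12 CPM in the same tumours and 0 in 6 of the livers, with 0.113 and 0.132 CPM in the others. Summed counts were 143 against 2, a ratio of 175 after division by library totals (95% exact interval 47.6 to 1459, counting error only). The log2 fold change fitted by edgeR was 6.77 ± 0.69 (adjusted p = 0.00013).

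Timp1 was 2.41, 17.5 and 5.06 CPM in the tumours against 0.114 to 2.89 CPM in the livers (3.2 ± 0.74, adjusted p = 0.016); the tumour of M00236 lay below the highest liver. Without M00248 the call was lost (1.99, adjusted p = 0.24). Mmp2 was 3.73, 4.26 and 7.34 CPM against 0.946 to 2.64 CPM (1.2 ± 0.35, adjusted p = 0.042). The groups did not overlap, but leaving out any of M00235, M00236, M00238, M00246, M00247, M00248 or M00249 ended that call (adjusted p between 0.055 and 0.17). In all, 4 of 21 genes tested were higher and 0 lower (background 6.98% and 3.64%; 11 at an unadjusted p under 0.05), with a median of 0.73 against 0.09; without M00246, 3 were higher and 0 lower. DESeq2 called the same 4 higher and Mmp19 lower, and over all genes the share of higher calls was 65.7% with edgeR, 54.4% with DESeq2 and 80.8% under library totals.

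Only M00236 and M00248 gave both a tumour and a liver. With the mouse as a block all 4 calls were lost: the adjusted p was 0.22 for Mmp12 (4.12), 0.39 for Mmp13 (5.79), 0.76 for Timp1 (2.57) and 0.97 for Mmp2 (0.91). Within M00236, Mmp12 was 17.6 in the tumour and 1.01 CPM in the liver, and within M00248 5.55 and 0.248 CPM. Both mice thus had the higher value in the tumour. Mmp19, a protease present in normal liver, went the other way without being called: 5.65, 4.26 and 3.54 CPM in tumours and 5.73 to 15.3 CPM in livers (−1.04 ± 0.35, adjusted p = 0.079). Mmp14 was 23.9, 91.2 and 82.8 CPM in tumours and 17.8 to 54.7 CPM in livers (0.73 ± 0.35, adjusted p = 0.22). Timp4, at 21.6 CPM in the tumour of M00249, was 0.241 and 0 CPM in the other tumours.

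**Figure D3:**
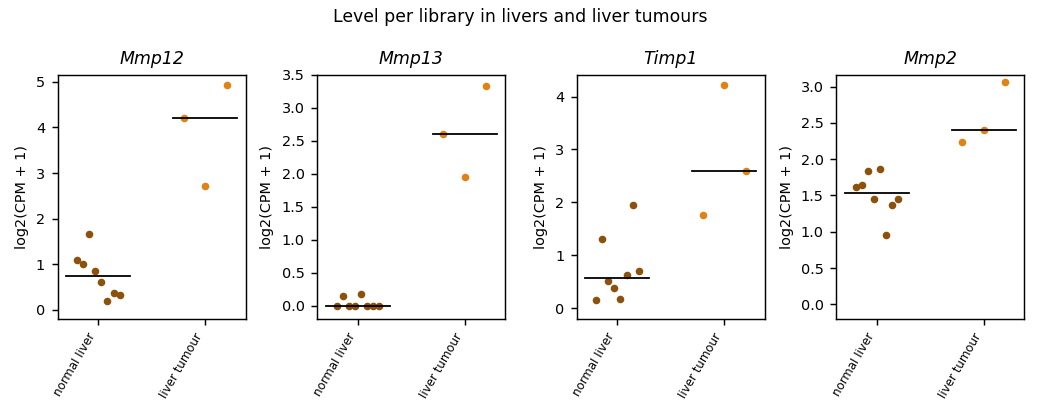
Level of Mmp12, Mmp13, Timp1 and Mmp2 in 8 normal livers and 3 liver tumours, as log2(CPM + 1); points are libraries and lines are medians. All 3 tumours lie above all livers for Mmp12, Mmp13 and Mmp2, and the lowest tumour lies below the highest liver for Timp1.

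The macrophage marker sum, with 8 of 8 markers detected, was 306 to 769 CPM in the liver tumours and 189 to 880 CPM in the livers, so these ranges overlapped. Epithelial markers (Epcam, Cdh1, Krt8, Krt18) summed to 743 to 1540 CPM in the tumours and 138 to 357 CPM in the livers, and their part in the results was not tested. Of the substrates, 6 of 7 collagens were higher in liver tumours (median 2.21), among them Col4a2 (2.50 ± 0.32) and Col4a1 (2.64 ± 0.35). Of 12 plasminogen regulators, 3 were higher and 1 lower, among them the plasminogen activators Plat, with a log2 fold change of 5.41 ± 0.73, and Plau, with 1.66 ± 0.37, and the clearance receptor Lrp1, with −1.38 ± 0.31. The AP-1 and ETS list gave 3 of 11 higher and 0 lower: Ets2 (1.2 ± 0.16), Jun (1.47 ± 0.24) and Jund (0.60 ± 0.15). No ADAM gene, cathepsin or Adamts-like gene of the lists was called in this comparison. Over all genes tested in it, 6.98% were higher and 3.64% lower.

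Normal tissues differed from each other in which proteases they held, and 35 of the 46 genes were tested there, each tissue against the mean of the other tissues. Lung stood out by number, with 18 genes higher and 1 lower (background 30.3% and 19.8%). Without M00246 the counts were also 18 and 1 for lung, and they were 7 and 19 for liver, 6 and 6 for muscle, 8 and 6 for brain and 9 and 8 for spleen. With scaling to library totals the lung counts were 26 and 1, and the share of higher among all calls went from 60.5% to 86.2%. Timp3 reached 1012 to 2362 CPM in lungs (2.73 ± 0.16, adjusted p = 1.6e-14), and the only other normal library in that range was the kidney, with 1715 CPM. Adamts8 lay at 16.8 to 35.9 CPM and at no more than 2.66 CPM in any other normal library (4.69 ± 0.35, adjusted p = 4.5e-12). Adamts15 had 11.8 to 37.7 CPM (3.30 ± 0.28), Adamts10 48.2 to 82.2 CPM (2.99 ± 0.23), Mmp11 14.3 to 31.5 CPM (3.36 ± 0.33) and Adamts1 64.4 to 125 CPM (2.26 ± 0.15), each with an adjusted p of 7.1e-10 or less. For these genes no other library that entered the test reached the lung range. Mmp12, produced by lung macrophages, was 2.30 to 9.39 CPM (3.02 ± 0.52, adjusted p = 1.7e-05).

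Liver was the tissue with the fewest of these transcripts: 20 genes were lower and 7 higher (background 34.7% and 27.2%, 61.9% in all), with a median of −1.44 against −0.33 for all genes. Under library totals 24 were lower and 5 higher, and the share of higher among all calls fell from 43.9% to 20.8%. Timp2 lay between 18 and 36.5 CPM in livers and was 3.34 ± 0.19 lower on the log2 scale (adjusted p = 1.4e-15), and Timp3 lay between 35.2 and 78.8 CPM and was 1.66 ± 0.17 lower (adjusted p = 5.4e-10). All 8 livers were below every other normal library tested for both inhibitors. Mmp15 (1.69 ± 0.19), Mmp19 (2.39 ± 0.34), Mmp27 (3.32 ± 0.70), Adamts7 (1.93 ± 0.41) and Adamts13 (3.12 ± 0.58), the protease that cleaves von Willebrand factor and is known to be made in liver, were higher. Low in CPM were Adamts13, at 0.270 to 3.04, Adamts7, at 0.289 to 1.69, and Mmp27, at 0 to 4.62. Mmp27 was 4.62 CPM in the liver of M00247, 2.36 in that of M00236 and at most 0.573 CPM in the others. Mmp14 and Mmp12 completed the higher genes but lost their calls under library totals, where Mmp14 was at −0.0018.

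Muscle had 7 genes higher and 8 lower (background 23.6% and 23.4%, 47.0% in all), which became 2 and 14 under library totals, with the share of higher among all calls going from 50.2% to 30.8%. Mmp2 led, with 31.0 to 55.2 CPM (3.12 ± 0.23, adjusted p = 1.5e-12), followed by Timp4, with 3.09 to 15.0 CPM (2.87 ± 0.42, adjusted p = 1.2e-06). Adamts1, Adamts5, Adamts20, Mmp3 and Timp2 were the other higher genes, and these 5 lost their calls under library totals. The Mmp3 call was also lost without M00246 (0.92, adjusted p = 0.12). The 3 keratins of squamous epithelium summed to 851 to 4009 CPM in muscles against 28.9 CPM or less in other normal libraries, and their part in the muscle values was not tested.

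Brain, with only 2 libraries, had 9 genes higher and 7 lower (background 24.8% and 20.9%). Library totals turned this to 12 and 1, with the share of higher calls going from 54.2% to 69.3%, and the mouse as a block left 2 lower. Timp4 was 36.2 and 37.1 CPM (5.03 ± 0.45, adjusted p = 7.7e-11), Adamts4 15.2 and 20.0 CPM (5.34 ± 0.59, adjusted p = 7e-09) and Mmp16 17.7 and 24.6 CPM (4.09 ± 0.46, adjusted p = 8.6e-09). Mmp17 was 9.12 and 30 CPM (4.15 ± 0.52), Adamts20 2.69 and 4.31 (3.05 ± 0.69) and Mmp24, a membrane-type protease of the nervous system, 1.54 and 2.28 CPM (3.15 ± 0.75). No other normal library tested overlapped with the brains in these genes. Timp2, at 672 and 675 CPM, was 1.27 ± 0.24 higher while lungs overlapped. Mmp3 (1.47 ± 0.58, adjusted p = 0.04) and Mmp13 (2.08 ± 0.80, adjusted p = 0.033) rested on M00238: Mmp3 was 13.2 CPM in that brain and 0.128 CPM in the other, and without M00238 the values were −4.07 and −0.51. The Mmp13 call was also lost without M00246 (1.95, adjusted p = 0.065). The reads of Timp4 cannot be told apart from those of Syn2, a neuronal gene on the opposite strand at 291 to 420 CPM in brains, since the use of strand in counting is not given in the sources used here; the same holds for Timp1 with Syn1, Timp3 with Syn3 (26.7 to 297 CPM in lungs), Adamts7 with Tbc1d2b and Mmp11 with Chchd10.

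Spleen had 10 genes higher and 9 lower (background 29.5% and 30.6%, 60.1% in all), and with the mouse as a block 5 higher. Mmp23 (4.27 to 16.1 CPM, 2.38 ± 0.41, adjusted p = 9.8e-06), Adamts10 (10.9 to 26.3 CPM, 1.15 ± 0.23, adjusted p = 9.7e-05) and Mmp16 (2.46 to 7.79 CPM, 1.75 ± 0.40, adjusted p = 0.00048) were among the higher genes. Lowest relative to the other tissues were Timp4 (−3.95 ± 0.65), Mmp15 (−3.01 ± 0.27) and Adamts15 (−2.50 ± 0.37). Mmp15 had 0.461 to 3.25 CPM and did not overlap with any other tissue tested, while the untested kidney had 0.689 CPM. In the single kidney, which got no test, Timp3 had 1715, Adamts5 67.0 and Adamts1 42.2 CPM.

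Mmp8 (neutrophil collagenase), Mmp9 and Mmp25 (leukolysin), the proteases stored in neutrophil granules, followed 1 animal. In mouse M00247 Mmp8 was 33.2 CPM in liver, 183 in lung and 128 in spleen, against no more than 0.788, 23.0 and 17.6 CPM in the same tissues of the other mice. Mmp9 was 31.8, 134 and 128 CPM against at most 1.49, 27.8 and 23.5 CPM, and Mmp25 7.65, 28 and 46 CPM against at most 0.143, 4.56 and 5.09 CPM. All of these values of M00247 were thus above every other mouse. A sum of 9 neutrophil markers, all detected, was 4306, 6862 and 20908 CPM in its liver, lung and spleen and no more than 1710 CPM in every other library; its part in these values was not tested. Without M00247, the log2 fold changes of sarcoma against lung went from −5.92 to −4.15 for Mmp8, from −2.63 to −1.50 for Mmp9 and from −2.67 to −1.50 for Mmp25, and against spleen from −6.04 to −3.76, from −3.07 to −1.45 and from −3.86 to −2.13. All 6 stayed called by edgeR (adjusted p between 0.0033 and 0.04). M00247 is also the mouse of the intestine tumour, which had 1.87 and 1.06 CPM of Mmp8.

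**Figure D4:**
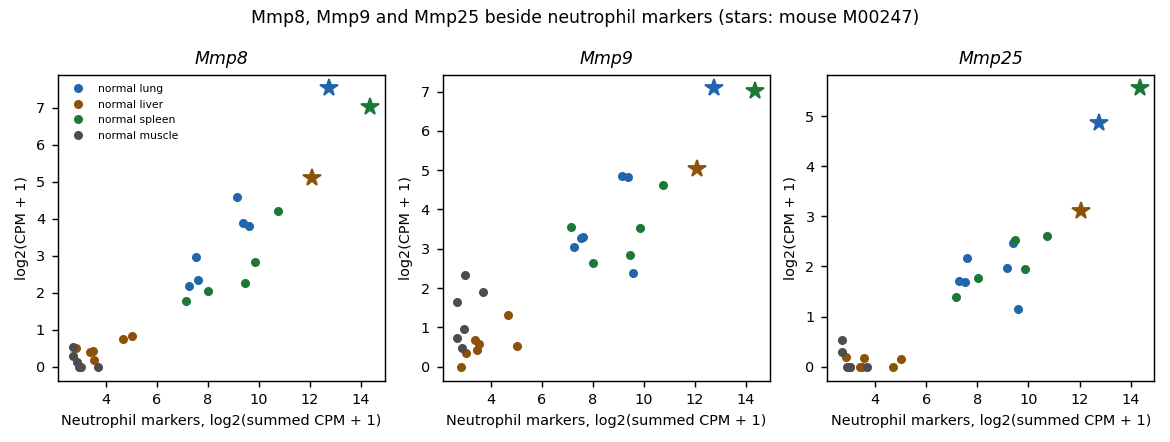
Level of Mmp8, Mmp9 and Mmp25 (vertical, log2(CPM + 1)) against the summed CPM of 9 neutrophil markers (horizontal, log2 scale) in normal lungs, livers, spleens and muscles; each point is a library and stars mark mouse M00247. The 3 stars are the highest library of their tissue on both axes.

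The intestine tumour was sampled as 2 libraries of 1 mouse and had no normal intestine, so no test was made. Its intestine markers were near background, while B cell markers summed to 791 to 1212 CPM and macrophage markers to 1587 to 2155 CPM. Mmp3 was 44.9 and 38.8 CPM and Mmp14 95.7 and 107 CPM in the libraries, which lay close together for these genes. Mmp10, a stromelysin of the same cluster as Mmp3, was 25.2 in one and 0 CPM in the other (up to 0.353 or 0.400 CPM is allowed by a count of 0), and Mmp13 was 8.27 and 0.353, Mmp12 7.87 and 0.941, Mmp9 14.8 and 3.29 and Timp1 9.33 and 2.12 CPM. The same library was thus higher in all of these. Timp2, at 205 and 239 CPM, and Mmp2, at 22.5 and 22.8 CPM, differed less.

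Cultured fibroblasts expressed some, but not all, of the genes that were high in sarcoma, in a table that was normalized on its own. Over 17 libraries, Mmp14 was 345 to 562 CPM, Timp1 357 to 822 CPM and Timp2 536 to 1192 CPM. Other genes called higher in sarcoma than in muscle were low in fibroblasts. Mmp16 was 1.76 to 10.5 CPM, Adamts12 1.61 to 7.19, Mmp17 3.34 to 9.65, Mmp15 0.255 to 3.08 and Adamts20 0 to 1.97 CPM. Mmp9, not called between sarcoma and muscle, was 15.5 to 53.3 CPM. Fusion transcripts were checked through Nrg1: embryo 1, labelled negative, had 132 and 147 CPM, and embryo 3, labelled homozygous, had 0.644 and 1.28 CPM, so both go against their labels. For embryo 8 the passages in the labels conflict, and 1 of its libraries was not used. Between genotypes as labelled, edgeR called 0 of 12357 genes (0%) and thus 0 of the 25 genes tested at either passage. At an unadjusted p under 0.05 there were 1258 genes for homozygous against negative at passage 1, with 3 of the 25 among them: Adamts10 (0.72 ± 0.30), Mmp2 (1.04 ± 0.43) and Mmp19 (−1.39 ± 0.42). The same contrast at passage 3 had 416, and heterozygous against negative had 302 at passage 1 and 465 at passage 3, with 0 of the 25 genes in each. DESeq2 called 1 gene, none of the 25, in the first of these contrasts and 0 in the others. Without embryos 1 and 3, added after seeing the data, the count among these genes was also 0 in each.

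Between passages 1 and 3 2 of the 4 inhibitors, Timp1 and Timp3, were called. Timp1 ran from 357 to 556 CPM in 9 passage 1 libraries (median 442) and from 532 to 822 CPM in 8 passage 3 libraries (median 685). It was higher at passage 3 in 8 of 8 embryos that had both (median ratio 1.48; log2 fold change 0.58 ± 0.10, adjusted p = 0.021). Timp3 ran from 340 to 822 CPM at passage 1 and from 497 to 1741 CPM at passage 3, and was higher in 8 of 8 embryos (median ratio 1.94; 1.03 ± 0.21, adjusted p = 0.038). Timp2 was higher in 8 of 8 embryos as well (median ratio 1.31; 0.36 ± 0.08) but missed the threshold (adjusted p = 0.051), which it passed with the embryo as a block (0.38, adjusted p = 0.019) and with DESeq2. Passage ranges overlapped for all of them, so the difference shows within embryos. Of 25 genes tested 2 were higher and 0 lower (background 0.728% and 0.332%; 9 at an unadjusted p under 0.05).

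At passage 1 the cultures of embryos 2, 3 and 10 had Timp3 at 385, 340 and 361 CPM against 543 to 822 in the other 6, and Timp1 at 387, 357 and 381 against 406 to 556 CPM. These cultures also had macrophage marker sums of 42.5 to 79.6 CPM, where the others had 521 to 977 CPM. Without these 3 embryos, a choice made after seeing the data, Timp1 (0.51, adjusted p = 0.048) and Timp3 (0.88, adjusted p = 0.011) stayed called and Timp2 was called (0.31, adjusted p = 0.026).

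These calls were sensitive to the libraries used. The Timp1 call was lost without embryo 1, 2, 3, 4, 5 or 8 (adjusted p between 0.052 and 0.11) and the Timp3 call without embryo 1, 2, 3, 4, 5, 6 or 8 (between 0.081 and 0.21). Without embryos 1 and 3 together neither was called (0.54, adjusted p = 0.26, and 0.86, adjusted p = 0.47). Directions were kept in all of these. Mmp3 was higher at passage 3 in 7 of 8 embryos, from 8.72 to 36.4 CPM at passage 1 to 8.00 to 81.5 CPM, and was not called (1.29 ± 0.43, adjusted p = 0.15). Mmp14 was also higher in 7 of 8 embryos (0.16 ± 0.07, adjusted p = 0.31). Of 6 proteoglycans 1, biglycan (Bgn, 0.24 ± 0.05, adjusted p = 0.037), was called (background 0.728% higher). None of the collagens, cathepsins, ADAM or AP-1 genes of the lists was called.

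Mmp12 split the passage 1 cultures. In embryos 2, 3 and 10 it was 2.53, 1.29 and 0.770 CPM, while the other 6 had 8.03 to 32.0 CPM. These are the 3 cultures low in macrophage markers, whose sum was 319 to 707 CPM throughout at passage 3; the part of macrophages in Mmp12 was not tested. At passage 3 Mmp12 ran from 1.12 to 7.22 CPM. The passage difference was −1.02 ± 0.54 (adjusted p = 0.4), and it was 0.19 without embryo 7. Without embryos 2, 3 and 10, a choice made after seeing the data, it was −1.63 (adjusted p = 0.0041). Those embryos had the lowest passage 1 values of Mmp12, so leaving them out lowers the difference by itself. No conclusion is drawn from that p-value.

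**Figure D5:**
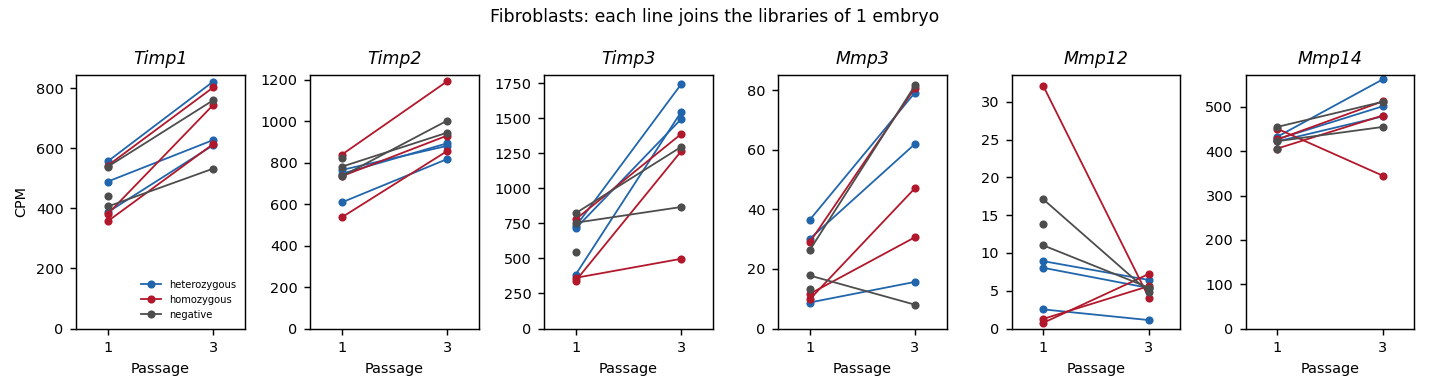
CPM of Timp1, Timp2, Timp3, Mmp3, Mmp12 and Mmp14 in fibroblasts at passages 1 and 3; points are libraries, lines join the libraries of 1 embryo and colours give the labelled genotype. Timp1, Timp2 and Timp3 are higher at passage 3 in 8 of 8 joined embryos, and Mmp12 in 2 of 8.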

How the data were processed

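Expected counts per gene were deposited by the authors in 1 table for fibroblasts and 1 for tissues. The sources used here do not give the aligner, counting program or genome build. Values that were not whole (6.57% in fibroblasts and 8.35% in tissues) were rounded; how the authors' counting gave them is not stated. One fibroblast column of embryo 8 matched no sample label and was not used. Members and gene lists were chosen with earlier results of these data known.

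Comparisons were two-sided quasi-likelihood F tests in edgeR 4.0.16 (R 4.3.3) after TMM scaling and filterByExpr (minimum count 10); p-values were adjusted by Benjamini-Hochberg over every gene fitted and called at 0.05. SEs were derived from the F statistic. The code was tested on simulated data. Sarcoma and tumour comparisons were fitted on the groups compared, normal tissues in 1 fit, fibroblasts in 1 fit of genotype and passage. Most called genes named with values had a mean of at least 5 CPM in the higher group. Some with lower means were also named with values, such as Mmp24 and Adamts20 in brain and Mmp12 in lung. Others were given by name, range or count. Up to 4 genes per list are named, those of smallest adjusted p.

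Libraries of 1 group always differed by more than sampling noise (chi-square per degree of freedom at least 11.7 in tissues and 2.99 in fibroblasts). Mouse and embryo numbers in the labels name the same animal, so they pair samples: in fibroblasts, deviations of the same embryo at both passages correlated by 0.0947 to 0.410 over 9737 genes. A mouse or embryo block was therefore an alternative, beside DESeq2 1.42.0, RLE scaling, no filter, a mean of at least 5 CPM, a joint tissue fit, each M00245 sarcoma alone and leaving out each animal. Coordinates and promoters are from RefSeq tables of GRCm38.p6, used only for those sequences; overlapping genes and neighbours on chromosome 9 were read from the GENCODE annotation of that assembly. Intervals cover counting error only.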

Additional observations from a re-analysis of the deposited data

Results flagged for a closer look

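Of 86 checks of a gene in a group of 4 to 10 animals, 18 had 1 animal far from the others, where chance alone marks about 1 in 20. Of these, 9 were in mouse M00247: Mmp8 at 33.2 CPM in liver, 183 in lung and 128 in spleen, Mmp9 at 31.8, 134 and 128 CPM, and Mmp25 at 7.65, 28 and 46 CPM, given above beside the neutrophil markers.

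The others were spread over mice. In lungs, Adamts1 was 125 CPM in M00249 (others 64.4 to 86.1), Adamts2 30.9 CPM in M00238 (others 9.56 to 15.9) and Timp4 9.25 CPM in M00248 (others 1.35 to 4.22). In livers, Adamts5 was 6.19 CPM in M00236 (others 2.11 to 3.86) and Mmp19 15.3 CPM in M00245 (others 5.73 to 9.29). In sarcomas, Adamts20 was 29.3 CPM in M00235 (others 6.41 to 13.9) and Mmp13 6.93 CPM in M00237 (others 0 to 2.09). Mmp3 was 7.25 CPM in the muscle of M00246 (others 2.42 to 4.02) and Timp3 223 CPM in the spleen of M00245 (others 115 to 148).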

How the results depend on the processing

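Over 216 results for single genes, 3651 alternative values were computed: 3442 kept direction and side of the threshold, 195 lost the call, 10 gained one and 4 changed sign. The signs that changed were Mmp14 in normal liver under library totals (−0.0018), Mmp3 and Mmp13 in normal brain on leaving out 1 animal (−4.07 to 2.37 and −0.51 to 2.90), and Mmp12 between passages (−1.27 to 0.19). Where a cause is not given above, it was not tested.

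Counts of members moved as follows. With the mouse or embryo as a replicate block, sarcoma against lung had 5 lower, sarcoma against liver tumour 1 lower, liver tumour against liver 0 higher, spleen 5 higher and brain 2 lower; the block moved no other count by over 1.5 times. A mean of at least 5 CPM, which tests fewer genes, left 1 lower for sarcoma against liver tumour, 1 higher for liver tumour, and in normal tissues 4 higher and 3 lower for muscle, 0 lower for lung, 2 higher and 10 lower for liver, 4 higher for spleen and 2 higher for brain. The joint fit, which tests more, gave lower counts of 1 for sarcoma against muscle, 4 against liver and 5 against liver tumour, and 9 higher for liver tumour against liver. Without a filter these were 4 lower against liver, 5 lower against liver tumour and 4 higher at passage 3. DESeq2 gave lower counts of 1 against muscle, 2 against spleen, 1 for liver tumour and 2 for lung. RLE scaling gave 4 lower in brain. Library totals gave 1 lower for sarcoma against liver tumour, 2 higher and 14 lower for muscle and 1 lower for brain. Either sarcoma of M00245 alone gave 1 lower against liver tumour. Without the muscles of M00237 and M00238, added after seeing the data, 1 was lower against muscle and 4 were lower in muscle. Fibroblast passages gave 0 higher without embryos 1 and 3 and 1 lower without embryos 2, 3 and 10. The lower gene was Mmp12, whose passage 1 values were lowest in the embryos left out.

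Leaving out 1 animal at a time gave 0 to 1 lower for sarcoma against muscle and against liver, 1 to 2 lower against liver tumour, 2 to 5 higher and 0 to 1 lower for liver tumour against liver, 4 to 9 lower in muscle, 1 to 2 lower in lung, 0 to 7 lower in brain, 0 to 5 higher at passage 3, and 0 to 1 for homozygous against negative at passage 1. Swapping the passages of embryo 8 was not run, because its second column could not be matched. Depth limits genes under about 1 CPM, where a library holds few counts.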
